A study of Mus musculus with 6 samples.

Results

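ATP-binding cassette (ABC) transporters were followed in mouse HoxB8 neutrophil progenitors. They were defined as the probe sets whose platform symbol begins with Abca, Abcb, Abcc, Abcd or Abcg, followed by a number and at most 1 letter. This gave 44 probe sets for 44 genes among the 22206 on the array: 16 of the A subfamily, 9 of B, 10 of C, 3 of D and 6 of G. The groups were cells that expressed K313-C/EBPα, the leukaemia-associated form of the transcription factor C/EBPα (K313, 3 arrays), and cells that expressed WT-C/EBPα (WT, 3 arrays). All cells were progenitors held immature by the transcription factor Hoxb8, and all had spent 1 day in differentiation medium with stem cell factor supernatant. The labels name neither the vector or promoter behind the C/EBPα forms nor whether replicates came from separate cultures. The p-values therefore measure the spread between these arrays, which may be technical.

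ABC transporters use ATP bound at a conserved nucleotide-binding domain to move substrates across membranes. The A and G subfamilies carry mostly lipids and sterols, the B subfamily includes P-glycoproteins and transporters of mitochondria and lysosomes, the C subfamily exports organic anions such as glutathione conjugates and cyclic nucleotides, and the D subfamily serves mainly peroxisomes. In myeloid cells the family is known for cholesterol efflux from macrophages (Abca1, Abcg1), for the export of leukotriene C4 (Abcc1) and for drug resistance in leukaemia.

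The arrays were alike across all probe sets, with Pearson's r of 0.995 to 0.996 within K313 and 0.994 to 0.995 within WT. WT replicate 3 lay nearest to K313, at 0.987 to 0.989, where the other WT arrays were at 0.983 to 0.986. All 3 Y-linked genes measured were higher in K313. Their mean log2 level was 10.64 to 11.18 in the K313 arrays and 3.31 to 6.05 in the WT arrays, where replicate 3 was the highest. Differences of the called transporters without that array are given below. The groups thus differed in Y-linked transcripts as well as in the C/EBPα form. In this design these cannot be told apart, and the part of each in the transporter differences was not tested. The neutrophil label was checked against 10 measured markers. Mpo averaged 18.42 in K313 and 18.41 in WT on the log2 scale. The late granule genes Ltf (3.24 and 3.22) and Camp (3.38 and 3.38) were at the low end of the range in both. Other neutrophil markers differed: Mmp8 averaged 13.01 in K313 and 6.02 in WT, S100a8 8.97 and 4.97, and S100a9 8.86 and 6.18. Ngp averaged 5.02 and 3.64 and did not pass the threshold given below. Basophil and mast cell markers were also present: the log2 of the summed signal of the 10 markers was 17.55 to 17.80 in K313 and 18.24 to 18.38 in WT, with 1 marker higher and 5 lower in K313. Of the neutrophil markers 6 were higher in K313 and 0 lower, and of 7 monocyte markers 3 were higher and 2 lower. The log2 of the summed signal was 19.18 to 19.23 in K313 and 18.71 to 18.78 in WT for neutrophil markers, and 12.83 to 13.41 and 11.12 to 11.67 for monocyte markers. All 4 lymphocyte markers called, of 7, and both called megakaryocyte markers, of 4, were lower in K313. Over all probe sets 3.77% were called higher and 3.97% lower. With 1 array left out, the monocyte marker Ccr2 missed the threshold given below in 6 of 6 cases and Adgre1 in 4. The basophil and mast cell marker Hdc missed it in 4 of 6 and the megakaryocyte marker Itga2b in 2. The other called markers of these types passed each time. The part of these markers in the transporter differences was not tested. Whether these cultures held mixed cells was not tested. If they did, fewer cells of a type and less RNA per cell cannot be told apart.

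Most ABC transporters differed little between the groups, and a few differed strongly. Expression was tested with limma on the deposited log2 values, with a Benjamini-Hochberg adjusted p under 0.05 over all probe sets as the threshold. 5 members were higher in K313, namely Abcc5, Abcb10, Abca13, Abcd2 and Abca3, 1 was lower, Abca2, and 38 did not pass. These 6 called members are 13.6% of the family, against 7.75% of all probe sets called, with 3.77% higher and 3.97% lower. The median difference, K313 minus WT, was 0.01 over the members and 0.02 over all probe sets. 36 of 44 members (81.8%) lay within 0.5 of 0 on the log2 scale, against 86.6% of all probe sets. Groups did not overlap in 9 members (20.5%), against 21.9% of all probe sets. RMA values near the low end compress differences, and 21 members had means of at most 5 in both groups, a level that cannot be told from background here. No member of that set was called. Of the 23 members above 5 in at least 1 group 26.1% were called, against 13.9% of all probe sets selected in the same way. Within 0.5 of 0 lay 65.2% of these members, against 77.8% of those probe sets. A probe set that reaches this level in 1 group only enters through that group.

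**Figure D1:**
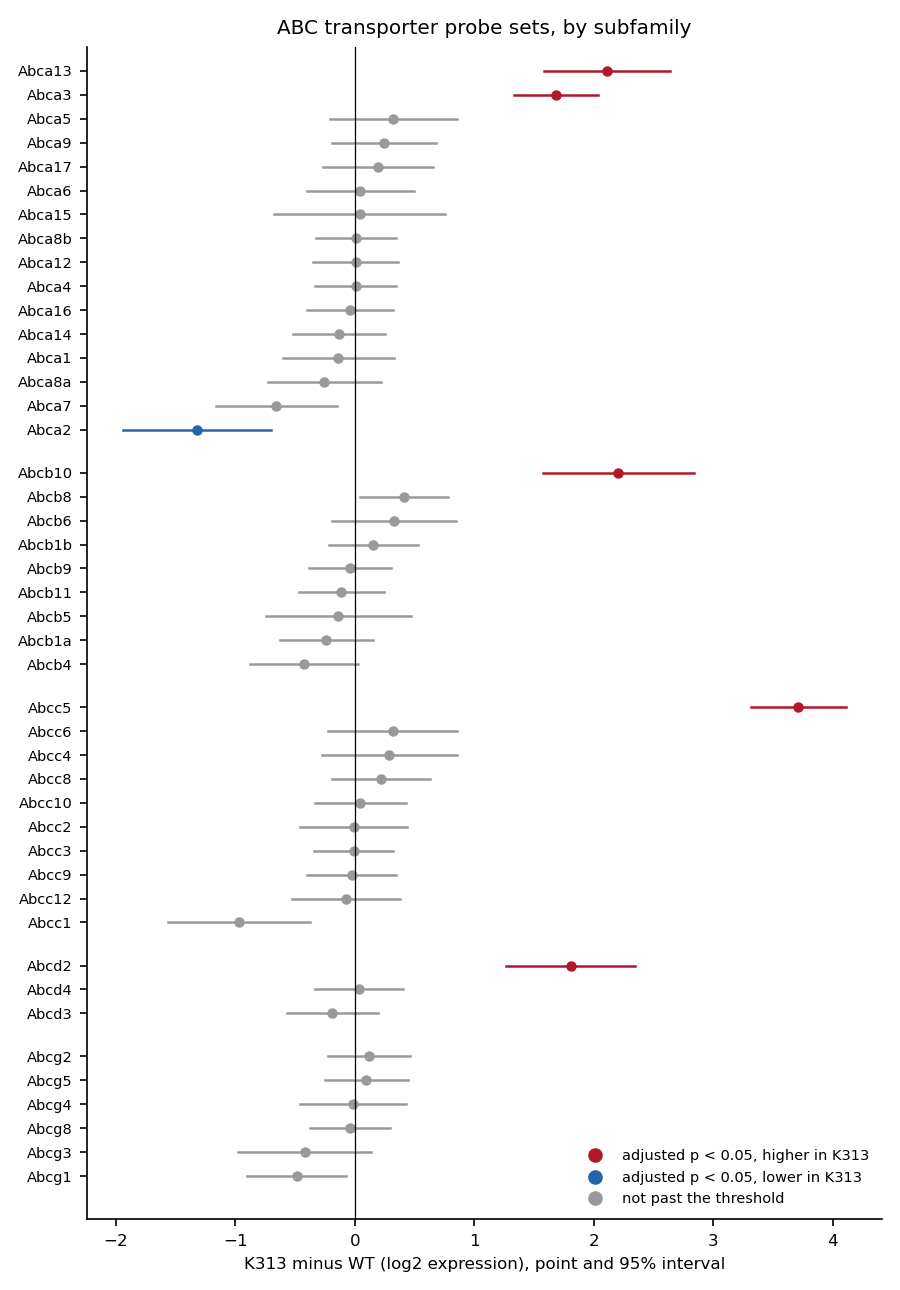
The difference K313 minus WT on the log2 scale (points) with its 95% interval before adjustment (lines) for the 44 ABC transporter probe sets, grouped by subfamily. The 5 members higher in K313 lie between 1.69 and 3.71, Abca2 lies at -1.32, and the remaining 38 lie between -0.97 and 0.41.

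To show what lies in front of these genes, the 100 bases before the RefSeq start (GRCm38.p6) are given for the called members found in the promoter table. The start is counted as position 1 and the base before it as -1. Capitals mark matches to the C/EBP site TTGCNNAA (TTNNGCAA on the other strand) and to the palindromic site of the nuclear respiratory factor NRF1, both searched on both strands. They also mark a TATA box, TATANA, searched on the gene's strand and starting 40 to 20 bases before the start. No marked matches overlap in the stretches shown.
Abcc5 (minus strand, chr16:20426395-20426494): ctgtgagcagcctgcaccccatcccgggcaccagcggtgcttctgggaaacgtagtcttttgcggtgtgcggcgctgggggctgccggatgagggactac
Abcb10 (minus strand, chr8:123983123-123983222): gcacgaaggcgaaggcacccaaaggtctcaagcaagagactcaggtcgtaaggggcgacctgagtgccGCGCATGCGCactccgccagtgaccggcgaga
Abca13 (plus strand, chr11:9191842-9191941): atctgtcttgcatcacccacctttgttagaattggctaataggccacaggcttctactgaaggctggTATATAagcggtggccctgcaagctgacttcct
Abca3 (plus strand, chr17:24351923-24352022): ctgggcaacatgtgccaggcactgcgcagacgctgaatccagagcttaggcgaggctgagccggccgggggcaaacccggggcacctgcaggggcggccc
Abca2 (plus strand, chr2:25428499-25428598): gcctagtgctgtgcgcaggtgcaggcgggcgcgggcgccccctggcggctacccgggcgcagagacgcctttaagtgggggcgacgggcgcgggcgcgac
Short stretches after the start are shown for the matches that fell there.
Abcc5 (minus strand, chr16:20426351-20426380): TTGCGCAAgctttgtgcatcGCGCTTGCGC
Abca3 (plus strand, chr17:24352026-24352055): GCGCACGCGCgctccgacgcgcccccccac

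The windows searched ran from 250 bases before to 50 after each start, and 34 of the 44 members had at least 1 (40 windows). The Abcc5 window holds a C/EBP match at position 15 and an NRF1 match at position 35. The C/EBP match is the full palindrome TTGCGCAA, which 0.183% of all 32851 windows hold. These exact letters were not the motif searched for, so that share is not the rate of the search. The looser consensus searched for is common, in 10.8% of all windows. Windows of 5 members hold it, Abca8b, Abcb1b, Abcc4, Abcc5 and Abcd3, of which Abcc5 alone was called. NRF1 matches are in 4.60% of all windows and in those of Abca3, Abcb10, Abcc5 and Abcd3, and TATA matches in 3.11% and in those of Abca1 and Abca13. The Abca13 window has 6 CpG dinucleotides in 300 bases, near the median of 7 over all windows. The other 4 called members shown have 21 to 29. These matches describe letters in a window and say nothing of which factors bind there.

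Among the organic anion exporters of the C subfamily, Abcc5 was far higher in K313. Abcc5 (also MRP5) exports cyclic nucleotides and is known from worms and zebrafish as a heme exporter. Its log2 level was 10.51, 10.33 and 10.45 in the K313 arrays, against 7.05, 6.46 and 6.65 in the WT arrays. All 3 K313 arrays lay above all 3 WT arrays by a wide margin, and the SD was 0.09 in K313 and 0.30 in WT. The difference was 3.71 ± 0.18 (SE, n = 3 per group; limma adjusted p = 8.17e-07), or 13.1-fold. Of all 22206 probe sets, ranked from the largest rise, Abcc5 was at rank 60.

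Abcc1 (MRP1), which exports leukotriene C4 and glutathione conjugates, had values of 11.21, 11.15 and 11.15 in K313, against 11.45, 12.73 and 12.24 in WT. The K313 arrays were nearly identical and all below WT, while WT spread over more than 1 log2 unit. The difference of -0.97 ± 0.27 (SE) just missed the threshold (limma adjusted p = 0.0526). It passed without WT replicate 1, where it was -1.32 (adjusted p = 0.00200), and was -0.68 without WT replicate 2 (0.142) and -0.92 without WT replicate 3 (0.148).

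Abcc4 (MRP4), a further exporter of cyclic nucleotides and prostaglandins, did not pass at 0.29 ± 0.26 (limma adjusted p = 0.656). Its levels were 11.09, 10.90 and 11.17 in K313 and 10.21, 11.39 and 10.69 in WT. The groups overlapped, and as for Abcc1 the lowest WT array was replicate 1 and the highest replicate 2. Of the rest, Abcc2 differed by -0.01 and Abcc10 by 0.05. Abcc3, Abcc12 and Abcc6, with means of at most 5 in both groups and so near background, differed by -0.01, -0.07 and 0.32. The sulphonylurea receptors Abcc8 and Abcc9, regulatory subunits of potassium channels, differed by 0.22 and -0.03 at levels of 3.26 to 3.48, near background.

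Among the B subfamily transporters of organelles, Abcb10 was higher in K313. Abcb10 lies in the mitochondrial inner membrane and is needed for heme synthesis in erythroid cells. Its level was 9.72, 9.21 and 9.22 in K313, against 6.45, 7.38 and 7.70 in WT. The groups lay well apart, and WT replicate 1 was the lowest array. The difference was 2.21 ± 0.29 (SE, n = 3 per group; limma adjusted p = 0.000487), or 4.62-fold, and 1.84 without WT replicate 1.

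Its mitochondrial relative Abcb8 had 10.53, 10.66 and 10.87 in K313 and 10.13, 10.23 and 10.46 in WT. The groups did not overlap, but the difference of 0.41 ± 0.17 did not pass (limma adjusted p = 0.212). Abcb6, a porphyrin transporter, differed by 0.33 ± 0.23 (adjusted p = 0.549), and the lysosomal peptide transporter Abcb9 by -0.04 ± 0.16 (0.943).

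The P-glycoproteins that confer multidrug resistance did not pass. Abcb1a had 5.54, 5.78 and 5.22 in K313 and 5.74, 5.70 and 5.81 in WT, a difference of -0.24 ± 0.18 (limma adjusted p = 0.570). Abcb1b had 6.51, 6.96 and 6.59 in K313 and 6.55, 6.45 and 6.59 in WT, a difference of 0.16 ± 0.17 (adjusted p = 0.728). The 95% intervals of the differences were -0.62 to 0.15 for Abcb1a and -0.21 to 0.53 for Abcb1b. The sequences of these 2 genes are closely alike, and whether their probes tell them apart is not stated. The phospholipid floppase Abcb4, their neighbour on chromosome 5, differed by -0.42 ± 0.20 (adjusted p = 0.319). Abcb5 and the bile salt export pump Abcb11 were near background at 3.30 to 3.72.

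Of the D subfamily, Abcd2 was higher in K313. It imports very long chain fatty acids into peroxisomes. Its level was 12.33, 12.06 and 12.17 in K313, against 9.75, 10.69 and 10.70 in WT, where replicate 1 was again the lowest. The groups lay apart. K313 exceeded WT by 1.81 ± 0.24 (SE, 3 arrays per group, limma adjusted p = 0.000615), or 3.50-fold. It was 1.49 without WT replicate 1 and 1.97 without WT replicate 3.

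The other peroxisomal member, Abcd3 (PMP70), had overlapping values of 11.35, 11.50 and 11.02 in K313 and 11.40, 11.43 and 11.60 in WT. Its difference was -0.19 ± 0.17 (limma adjusted p = 0.671). Abcd4, which works in lysosomal cobalamin release, differed by 0.04 ± 0.17 (adjusted p = 0.951).

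The A subfamily had members that went both ways. Abca3 loads phospholipids into the lamellar bodies of lung alveolar cells. It had 7.84, 7.66 and 7.75 in K313, against 6.14, 5.86 and 6.19 in WT. Both groups were tight and lay apart. K313 exceeded WT by 1.69 ± 0.16 (SE, 3 arrays per group, limma adjusted p = 4.11e-05), or 3.22-fold.

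Abca13, a very large member whose substrate is poorly known, had 6.53, 6.04 and 6.94 in K313, against 4.68, 4.08 and 4.42 in WT. The WT values were near background, so the difference of 2.11 ± 0.24 (limma adjusted p = 0.000155), or 4.32-fold, may be compressed, which was not tested. Abca2, a sterol and lipid transporter of lysosomes and endosomes best known from the brain, went the other way. It had 6.19, 6.47 and 5.95 in K313, against 7.37, 8.22 and 6.97 in WT. The groups lay apart and WT replicate 2 was the highest. The difference was -1.32 ± 0.28 (limma adjusted p = 0.0134), or 2.49-fold lower. It missed the threshold without K313 replicate 3 (adjusted p = 0.0719) and was -0.97 without WT replicate 2.

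Abca7, a phospholipid exporter known for a part in phagocytosis, had 5.96, 6.28 and 5.72 in K313 and 6.29, 7.12 and 6.52 in WT. The K313 arrays were all below WT, by 0.01 at the closest point, and the difference of -0.66 ± 0.23 did not pass (limma adjusted p = 0.137). Abca1, the cholesterol exporter to apolipoprotein A-I, was near background, with means of 4.15 in K313 and 4.29 in WT (-0.14 ± 0.21, adjusted p = 0.824). Abca4, the retinal transporter, and Abca12, the lipid transporter of skin, differed by 0.01 each, and Abca17 by 0.20, all near background.

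The runs of neighbouring A members on chromosomes 11 and 7 were at or near background in both groups. On chromosome 11, Abca5, Abca6, Abca8a and Abca9 had means of 2.83 to 3.78 and Abca8b of 5.07 in K313 and 5.06 in WT. On chromosome 7, Abca14, Abca15 and Abca16 had means of at most 3.71. Differences in these 8 genes ran from -0.25 to 0.32, and none passed.

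No G subfamily member passed. Abcg1, which moves cholesterol to high-density lipoprotein, had 7.14, 7.30 and 7.46 in K313 and 7.88, 7.45 and 8.03 in WT. The groups touched, with the highest K313 array at 7.46 and the lowest WT array at 7.45. The difference of -0.49 ± 0.19 did not pass (limma adjusted p = 0.184). Abcg4, a close relative of Abcg1, differed by -0.01 ± 0.20, and Abcg3 by -0.42 ± 0.25 (adjusted p = 0.455). Abcg2, the drug and urate exporter that marks stem cells in dye efflux assays, was near background in both groups (4.01 and 3.89). So were Abcg5 (3.12 and 3.03) and Abcg8 (2.95 and 2.99), which together form the sterol exporter of liver and gut and lie side by side on chromosome 17.

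**Figure D2:**
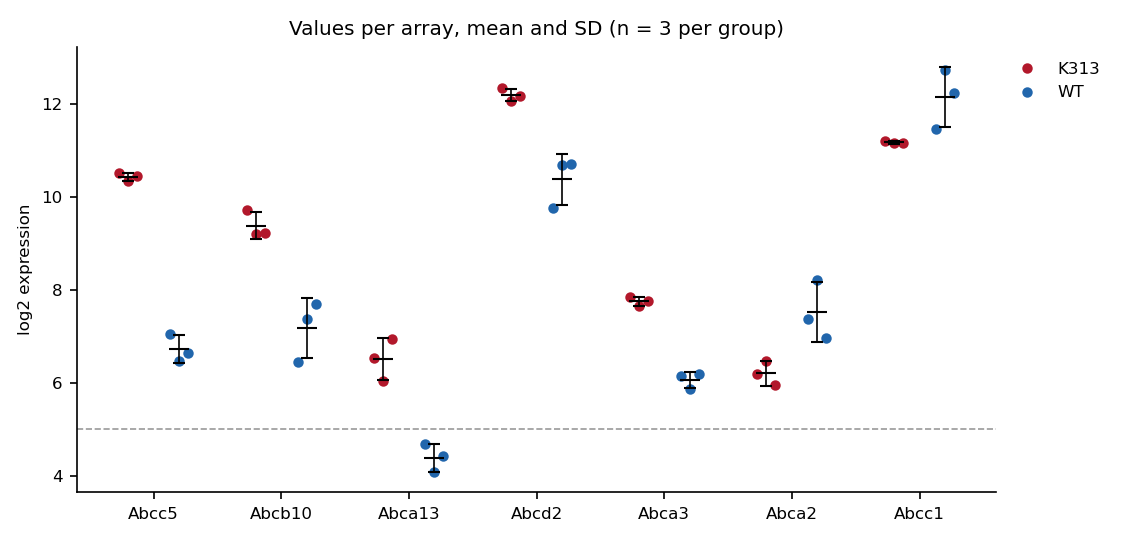
Log2 expression in each array (points) for the 6 called ABC transporters and Abcc1, with K313 left of WT in each pair and the mean and SD of each group in black. The dashed line marks a level of 5. K313 and WT arrays do not overlap in any of the 7 genes, which were chosen by their adjusted p. Groups did not overlap in 21.9% of all probe sets. Abcc1, whose WT arrays run from 11.45 to 12.73, just missed the threshold.

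Values within a group spread slightly more for the family than for all probe sets. The median SD was 0.21 in K313 and 0.23 in WT over the members, and 0.19 and 0.20 over all probe sets. Members above 5 in at least 1 group had a median SD of 0.24 in K313 and 0.30 in WT. All probe sets selected in the same way had 0.18 and 0.22. Leaving out 1 WT array gave differences of 3.58 to 3.88 for Abcc5 and 1.58 to 1.75 for Abca3. Without WT replicate 3, the WT array nearest to K313, the differences were 3.68 for Abcc5, 2.47 for Abcb10, 2.12 for Abca13, 1.97 for Abcd2, 1.75 for Abca3 and -1.59 for Abca2, and all 6 passed the threshold.

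**Figure D3:**
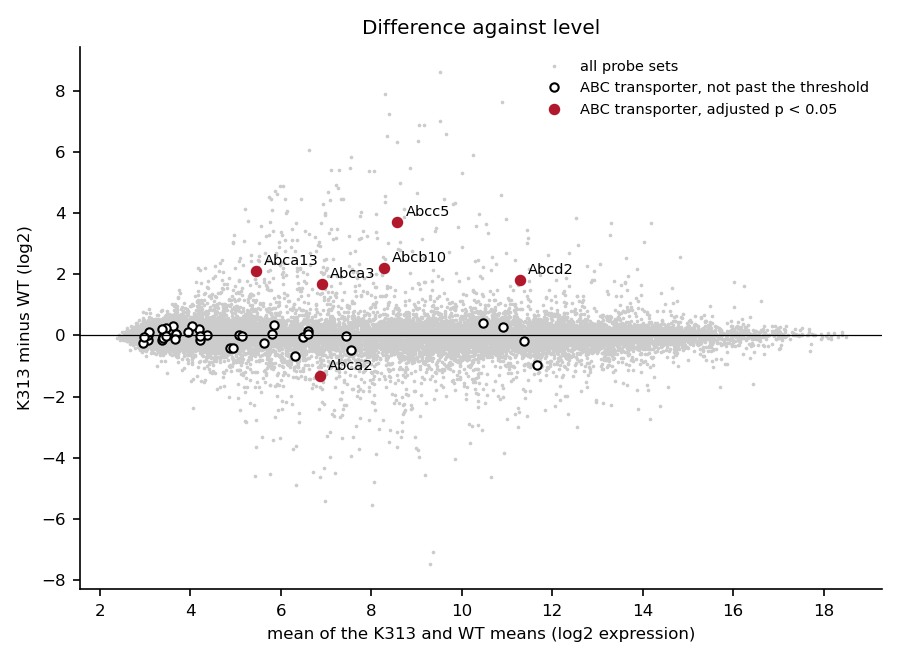
The difference K313 minus WT (log2, vertical axis) against the mean level of both groups (log2, horizontal axis) for all probe sets (grey) and the 44 ABC transporters (circles, filled where the adjusted p was under 0.05). The 6 called members have mean levels between 5.45 (Abca13) and 11.28 (Abcd2), and the 21 transporters at most 5 in both groups lie between -0.25 and 0.32.

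The genes around each called transporter were compared by position. For each, the 5 nearest measured protein-coding genes on either side were taken in RefSeq order. Calls among them are read against the 7.75% of all probe sets called. None of the 10 neighbours passed for Abcc5, Abca13, Abca3 or Abcd2. The closest genes to Abcc5, Cyp2ab1 and the translation factor subunit gene Eif2b5, differed by 0.10 and -0.02, and those of Abcd2, Kif21a and Slc2a13, by -0.08 and -0.02. Abca17, which lies next to Abca3, differed by 0.20 ± 0.21. 1 of 10 neighbours of Abca2 passed, the prostaglandin D synthase gene Ptgds (-2.19 ± 0.48, limma adjusted p = 0.0150). Its difference was -1.48 without WT replicate 1, and it missed the threshold without any 1 of the K313 arrays.

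Around Abcb10, 3 of the 9 neighbours described here passed, in both directions, where 7.75% of all probe sets passed. The glycosyltransferase gene Galnt2 was higher in K313 by 1.16 ± 0.27 (limma adjusted p = 0.0231), a call lost without any 1 of the K313 arrays. The endosomal GTPase gene Rab4a differed by -3.32 ± 0.29 (adjusted p = 2.06e-05) and Ccsap by -1.08 ± 0.20 (0.00558). The nearest neighbours, Nup133 and Taf5l, did not pass, at 0.10 and -0.17.

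**Figure D4:**
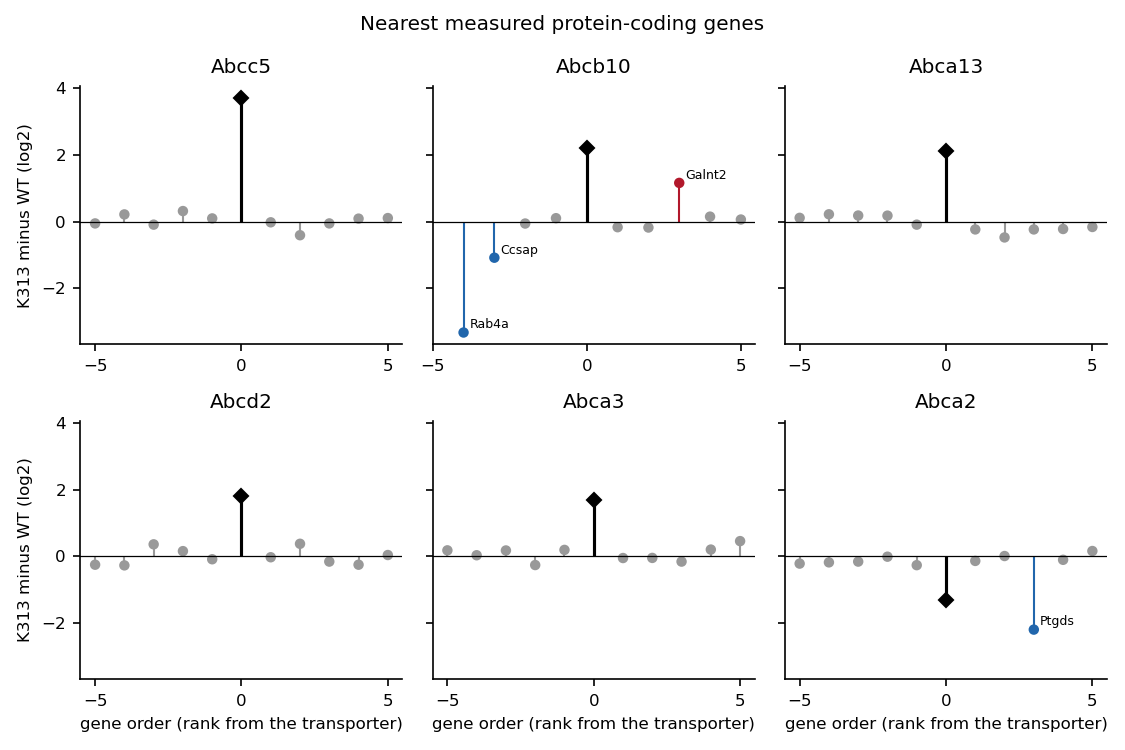
The difference K313 minus WT (log2, vertical axis) for each called transporter (black diamond) and its 5 nearest measured protein-coding genes on each side (4 on the left for Abcb10), in chromosomal order (horizontal axis). Red and blue points passed the threshold as higher and lower in K313; they occur around Abcb10 (Rab4a, Ccsap, Galnt2) and Abca2 (Ptgds).

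The genes that work with these transporters were counted in lists, each read against the 7.75% of all probe sets called. Of 19 genes of heme and iron-sulphur cluster synthesis, the setting of Abcb10, 3 were higher in K313 and 0 lower. They were the ferredoxin gene Fdx1 (1.32 ± 0.19), the mitochondrial iron importer Slc25a37 (0.79 ± 0.17) and the heme exporter Flvcr1 (0.64 ± 0.17), with limma adjusted p of 0.00100, 0.0142 and 0.0403. With any 1 array left out Fdx1 passed, Flvcr1 missed the threshold each time, and Slc25a37 missed it in 4 of 6 cases (without K313 replicate 1 or 3 or WT replicate 1 or 2). The median of the list was 0.15. Alas2, the erythroid enzyme that starts heme synthesis, was near background (4.66 in K313 and 4.64 in WT), and Alas1, the enzyme of other cells, differed by -0.02 ± 0.16. Of 5 measured erythroid markers 1 was higher and 1 lower, Tfrc at 0.72 ± 0.19 and Gata1 at -3.69 ± 0.24. The call of Tfrc was lost in 4 of 6 cases with 1 array left out (K313 or WT replicate 1 or 2). The log2 of their summed signal was 14.22 to 14.79 in K313 and 13.82 to 14.13 in WT, which the transferrin receptor Tfrc, the gene with the strongest signal of the list, largely sets. Their part in the Abcb10 difference was not tested.

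Of 13 genes of leukotriene synthesis and reception, the setting of Abcc1, 2 were higher and 2 lower. The cysteinyl leukotriene receptor Cysltr1 rose by 3.42 ± 0.26 and leukotriene A4 hydrolase, Lta4h, by 1.37 ± 0.15. Cytosolic phospholipase A2, Pla2g4a, fell by 1.11 ± 0.18 on the log2 scale and leukotriene C4 synthase, Ltc4s, whose product Abcc1 exports, fell by 0.73 ± 0.19 (limma adjusted p = 0.0382). The call of Ltc4s was lost on leaving out any 1 array but WT replicate 3, with adjusted p of up to 0.131. Alox5 was near background in both groups, at 3.66 and 3.62. Mast cells and basophils make much of the leukotriene C4 in blood and tissue, and their markers differed between the groups as given above. Their part in these values was not tested.

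Of 17 genes of glutathione metabolism and the Nrf2 response, 3 were higher and 3 lower. Mgst1 was higher by 7.63 ± 0.75 and Gstm1 by 1.62 ± 0.16. Mgst1 had 5.52, 6.26 and 9.46 in WT, with replicate 3 far above the others, and its difference was 8.82 without WT replicate 3 and 6.85 without WT replicate 1. The Nrf2 target Nqo1 differed by -3.33 ± 0.34 and Gsta4 by -1.47 ± 0.17 (limma adjusted p between 5.38e-05 and 0.000190 for these 4). Of 22 sterol and LXR genes, 2 were higher and 2 lower: the oxidised lipoprotein receptor Olr1 (3.68 ± 0.24), the sterol synthesis enzyme Hmgcs1 (1.04 ± 0.20), the lysosomal sterol carrier Npc2 (-0.61 ± 0.16) and the lysosomal lipase Lipa (-0.69 ± 0.18). Olr1 and Hmgcs1 passed with any 1 array left out, whereas Npc2 missed the threshold each time and Lipa each time but without WT replicate 1. Nr1h3, the LXR gene that drives Abca1 and Abcg1 in macrophages, was near background at 4.44 in K313 and 4.43 in WT. Of 22 peroxisome genes, the setting of Abcd2, 0 were higher and 2 lower, the phytanic acid enzyme Phyh (-1.07 ± 0.27) and the sterol carrier Scp2 (-0.65 ± 0.17). Each missed the threshold in 4 of 6 cases with 1 array left out, Phyh without replicate 1 of either group, K313 replicate 2 or WT replicate 3, and Scp2 without replicate 2 or 3 of either group. The remaining 20, among them catalase (Cat, -0.16 ± 0.17), did not pass.

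**Figure D5:**
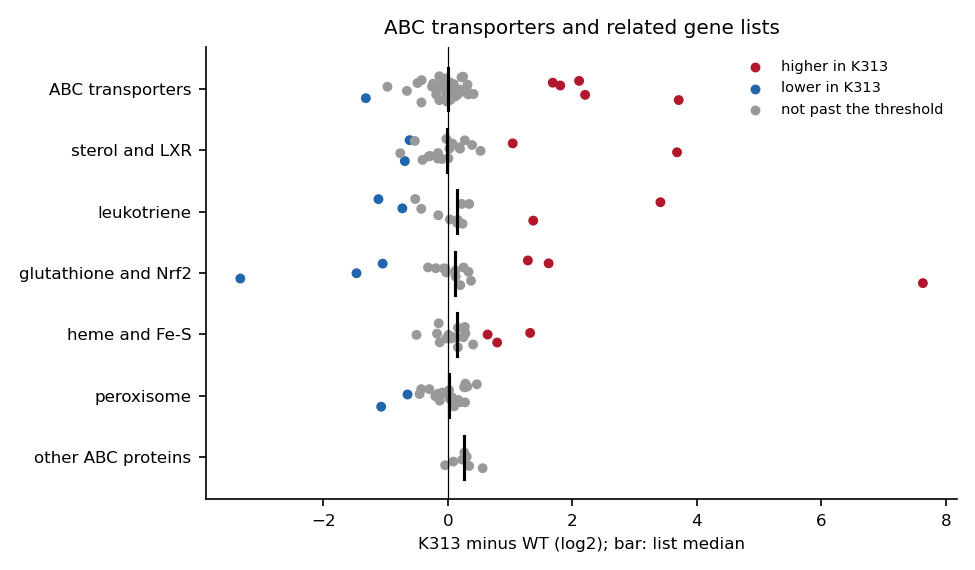
The difference K313 minus WT (log2) of each gene (points) in the ABC transporter family and 6 related lists, with the list median as a bar. Red and blue points passed the threshold as higher and lower in K313; list medians lie between -0.01 and 0.27.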

How the data were processed

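The authors deposited log2 expression for each probe set of Affymetrix Mouse Clariom S arrays, made with RMA and the Transcriptome Analysis Console per the submitters' processing notes. Versions and the build of the array design are not given in the sources used here. RMA equalises the arrays' distributions, which hides any shift in RNA content. The table holds 22206 probe sets in 6 arrays, with 2 decimals, and array medians of 5.01 to 5.13. Precision is limited by the number of arrays. 19572 probe sets have 1 symbol and 2634 have none, and those without one stayed in the test unnamed.

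Differences are K313 minus WT from limma 3.58.1 (R 4.3.3), with lmFit on the group, eBayes with its default prior, two-sided, adjusted over all probe sets. Errors of differences are standard errors of the fit. A check on simulated data used independent normal noise with the fit's own variances, equal in both groups. It therefore cannot speak to unequal spread or to noise shared between arrays. Members, lists, motifs and the level of 5 were chosen with earlier results of these data known. All members past the threshold or with an unadjusted p under 0.05 are named, and up to 4 called genes per related list. Neighbours, marker genes and uncalled list genes named are further descriptions, chosen by position, from the lists or after their values were seen; 1 neighbour of Abcb10 is not reported here. Motifs and windows were searched in RefSeq promoter sequences of GRCm38.p6; Abcd2 is among the members with no window used here. Same-numbered arrays of the groups did not deviate together (correlations of deviations from the group means -0.06, 0.03 and -0.06), so the numbers were not taken as pairs.

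14 alternatives were run: a replicate block, array weights, ordinary variance, quantile normalization, a common median, dropping the 30% of probe sets with the lowest means, a robust prior with an intensity trend, probe sets with 1 gene symbol and each of the 6 arrays left out.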

Additional observations from a re-analysis of the deposited data

How the results depend on the processing

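Of the 6 called transporters, Abcc5 and Abca3 passed under all 14 alternatives. Abca13, Abcb10 and Abcd2 missed the threshold with ordinary variance alone (adjusted p = 0.0755, 0.114 and 0.107), and Abca2 with ordinary variance (0.258) and without K313 replicate 3 (0.0719). Abcc1 passed under 7, with adjusted p of 0.00200 to 0.359 over all 14. No other member passed under any. No called difference changed direction. With ordinary variance 2 transporters passed, 2 higher and 0 lower, and 496 probe sets in all, 247 higher and 249 lower. With Abcc1, 2 transporters were lower with a common median, with the lowest 30% left out, with an intensity trend and robust prior, with array weights, with probe sets of 1 symbol and with the replicate block. Leaving out arrays gave 0 to 2 lower and always 5 higher transporters, and 575 to 776 lower probe sets in all. The median of the family was -0.07 with a common median, where that of all probe sets was -0.06. With ordinary variance the called genes numbered 1 for sterol and LXR, 2 for leukotriene, 2 for glutathione and Nrf2, 0 for heme and 0 for peroxisome. The sterol count was 2 with quantile normalization and 2 with the replicate block, and the peroxisome count 1 with the replicate block. Leaving out arrays gave 2 to 3 sterol, 3 to 4 leukotriene, 4 to 6 glutathione, 1 to 2 heme and 0 to 1 peroxisome genes past the threshold. The replicate block gave 2 heme and 3 leukotriene genes, with Flvcr1, Ltc4s, Lipa, Npc2 and Scp2 past the threshold no longer (adjusted p of 0.0864, 0.0511, 0.0715, 0.0629 and 0.0795). Among the transporters it changed the call of Abcc1 alone. No depth applies to arrays; levels of at most 5 limit what can be seen in 21 members. Causes were not tested.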

Other observations

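ABC proteins outside the symbol pattern did not pass. The peptide transporter of antigen presentation has the subunits Tap2, with 10.54, 10.33 and 10.66 in K313 and 9.99, 9.69 and 10.17 in WT (0.56 ± 0.18, limma adjusted p = 0.0930), and Tap1, with 11.43, 11.85 and 11.80 in K313 and 11.56, 11.80 and 11.85 in WT (-0.04 ± 0.17, adjusted p = 0.945). The Tap1 arrays overlapped between the groups. Those of Tap2 and Abcf2 did not, 2 of the 7 genes of this kind measured, where groups did not overlap in 21.9% of all probe sets. Abce1, which splits ribosomes and transports nothing, averaged 15.63 in K313 and 15.33 in WT (0.30 ± 0.19, adjusted p = 0.490). The translation-related genes Abcf1, Abcf2 and Abcf3 differed by 0.27, 0.34 and 0.09, and the chloride channel gene Cftr by 0.23 near background. Of these 7 genes 0 passed limma's adjusted threshold, where 7.75% of all probe sets passed. A count of 0 in 7 genes cannot be told from that share. Only 1 gene, Tap2, had an unadjusted p under 0.05, and 0 passed under any of the 14 alternatives.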
